A study of Mus musculus with 4 samples.

Results

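The genes examined here are 10 liver genes of triglyceride synthesis and very-low-density lipoprotein (VLDL) assembly, taken by symbol from the 25655 genes of the deposited count table. They are Gpam and Agpat2, which acylate glycerol-3-phosphate and its product, the lipins Lpin1 and Lpin2, the diacylglycerol acyltransferases Dgat1 and Dgat2, the monoacylglycerol acyltransferases Mogat1 and Mogat2, and the lipoprotein assembly genes Mttp and Tm6sf2. All 10 were present in the table and all 10 passed the filter on low counts. Liver polyA RNA was compared between ADAR2−/−/GluR-BR/R mice (HFD-KO) and ADAR2+/+/GluR-BR/R mice (HFD-WT), with 2 libraries in each group. Both genotypes came from intercrossed heterozygotes on a B6129S background, both carried the GluR-BR/R allele, and both were fed the high-fat diet for 12 weeks from an age of 5 weeks. The deletion is inherited and is therefore present in every tissue, so these livers do not separate a hepatocyte effect from one that starts elsewhere. The study describes its later experiments as done in male mice, while the labels give no sex. It names more mice per group for its RNA analysis than the 2 libraries per group analysed here and does not say whether a library pools mice, so the p values below describe the spread between these 4 libraries.

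Hepatocytes build triglyceride stepwise in the endoplasmic reticulum. A first acyl chain is added to glycerol-3-phosphate by GPAT enzymes, of which Gpam encodes the mitochondrial form, and a further chain is added by AGPAT enzymes such as Agpat2. Lipins then remove the phosphate to give diacylglycerol, and DGAT enzymes add the last acyl chain. MOGAT enzymes reach diacylglycerol by a shorter route, from monoacylglycerol, which is the main route in the intestine. Triglyceride leaves the liver in VLDL, for which the microsomal transfer protein encoded by Mttp loads lipid onto apolipoprotein B, and the membrane protein encoded by Tm6sf2 is needed for normal lipid loading. Fatty liver arises where synthesis outruns oxidation and export. The comparison asks whether loss of ADAR2 goes with altered transcripts for making or exporting triglyceride in livers on a high-fat diet.

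The libraries held between 24480798 and 28691330 counted reads. Reads per gene are given as CPM, the count divided by the library size and scaled to a fixed total, with library sizes normalized by the trimmed mean of M values (TMM), and fold changes are HFD-KO over HFD-WT on the log2 scale, each with its standard error (SE), with edgeR's quasi-likelihood test and Benjamini-Hochberg adjustment over 12967 genes. Adarb1, the deleted gene, had 15.7 and 19.8 CPM in the wild-type livers against 6.23 and 9.54 CPM in the knockout livers (log2 fold change -1.17, SE 0.20, edgeR adjusted p = 0.159). Reads were thus still counted on it in both HFD-KO libraries. It was called by DESeq2's Wald test (adjusted p = 0.00067), and by edgeR with no filter on low counts (adjusted p = 0.0025) or a replicate block (adjusted p = 0.040). It was not called by edgeR with DESeq2 size factors, library size alone or a filter of 1 CPM. Its log2 fold change ran from -1.51 to -0.89 in the fits without one library. The hepatocyte markers were abundant in all 4 libraries, their summed level lying between 76970 and 91970 CPM over 10 genes. Alb made up most of this sum. In HFD-KO livers 8 of these markers were higher and 2 lower, with a median log2 fold change of 0.109 beside 0.0068 for all genes tested. Of 8 markers of the intestinal enterocyte, which also expresses Mogat2, Mttp and Tm6sf2, Alpi, Sis and Cdx1 had 0 reads in all libraries and Vil1, Cdh17 and Muc13 had at most 5. Apoa4 and Fabp2, which hepatocytes also express, made up the list's sum of 3161 to 5714 CPM.

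Of the 10 genes, the lipins and Mogat1 were lower in both HFD-KO livers than in both HFD-WT livers, whereas the genes of the last acylation step and of lipid transfer to apolipoprotein B differed little between genotypes. Lpin1 stood farthest from equality, with a level in HFD-KO livers of 0.424 times that in HFD-WT livers by the fitted fold. At an adjusted p under 0.05 edgeR called 0 of the 10 genes, and DESeq2's Wald test also called 0, beside 0.0771% of all genes tested in edgeR (0.054% higher and 0.0231% lower). At an unadjusted p under 0.05, 3 genes were lower (Lpin1, Lpin2 and Mogat1) and 0 were higher by either tool, beside 4.73% of all genes tested that were lower and 4.25% that were higher in edgeR (8.98% in either direction). The values of the groups did not overlap for 5 genes, 3 of them lower and 2 higher (Agpat2 and Tm6sf2), beside 20.3% and 20.5% of all genes tested. The median log2 fold change of the 10 genes was -0.071 and that of all genes tested was 0.0068. The absence of adjusted calls depended on the libraries and the filter. Each fit without 1 library left a genotype with a single library, so its spread came from the other genotype alone. Adjusted p values and calls of such fits, here and below, are therefore not comparable with those from all 4 libraries. When all genes with a count were tested, Lpin1 and Mogat1 were lower at an adjusted p under 0.05 by edgeR, among 81 higher and 81 lower genes. Without HFD-KO replicate 1, Lpin1 and Mogat1 were lower and Tm6sf2 was higher at an adjusted p under 0.05, but the same fit called 376 higher and 329 lower genes overall. Without HFD-KO replicate 2, Lpin1 and Lpin2 were called, among 226 higher and 185 lower genes, and without HFD-WT replicate 1 Lpin1 was called, among 9 higher and 3 lower genes. Without HFD-WT replicate 2, 0 of the 10 genes and 0 genes overall were called by edgeR, while 2 of the 10 genes were lower at an unadjusted p under 0.05, among 255 higher and 207 lower genes.

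**Figure D1:**
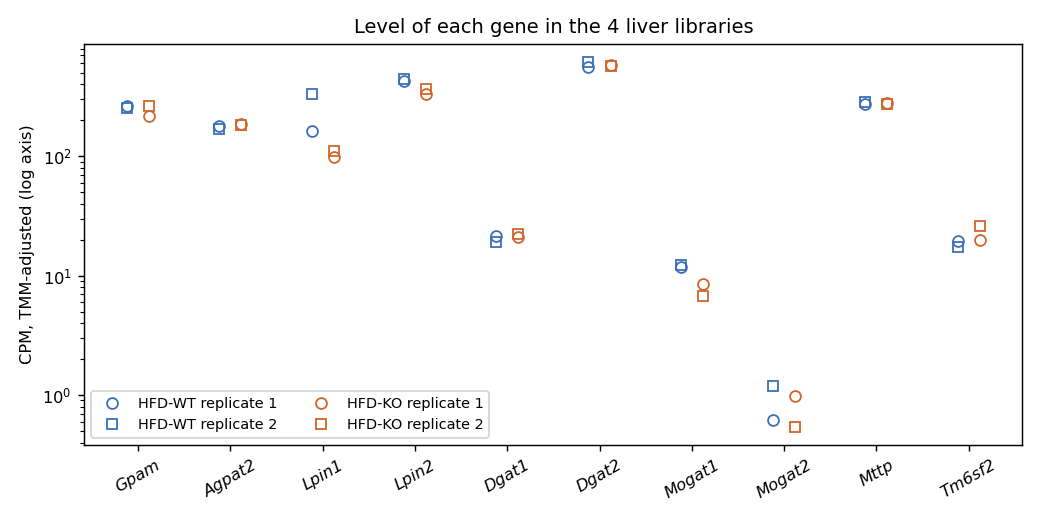
Level of each of the 10 genes in each library, in TMM-adjusted CPM on a log axis, with HFD-WT in blue and HFD-KO in orange and replicates 1 and 2 as circles and squares. Dgat2 is highest in every library and Mogat2 lowest, and the HFD-WT symbols of Lpin1 lie farther apart (162 and 334 CPM) than those of any other gene above 10 CPM.

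**Figure D2:**
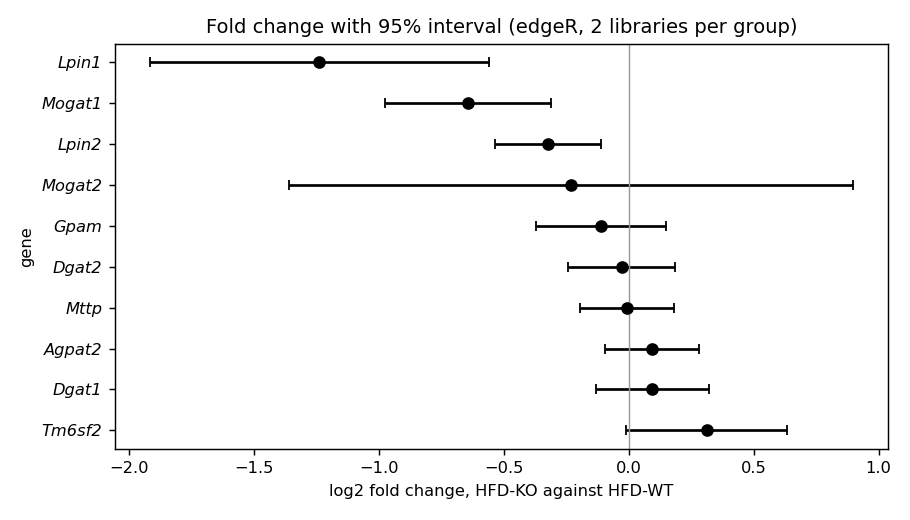
Log2 fold change between the genotypes (HFD-KO over HFD-WT) for each gene, with the 95% interval from edgeR's fit as bars. The intervals of Lpin1, Mogat1 and Lpin2 lie below 0, and the other 7 include 0.

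**Figure D3:**
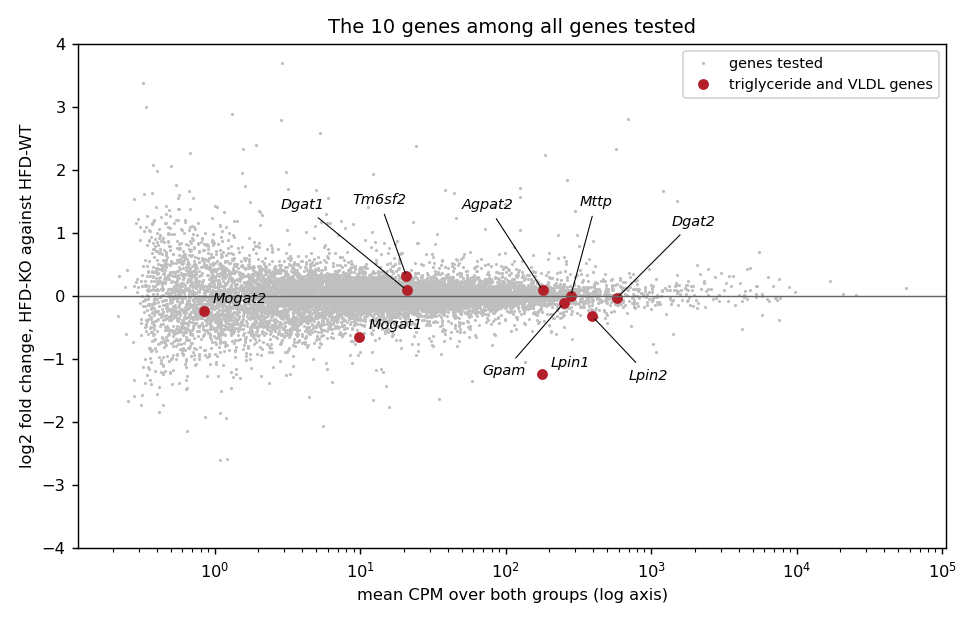
Log2 fold change against mean CPM on a log axis for the genes tested (grey) and the 10 genes (red); 6 genes with a change beyond 4 in size lie outside the plot. Lpin1 lies lowest of the 10 at -1.24, whereas 6 genes (Gpam, Agpat2, Dgat1, Dgat2, Mogat2 and Mttp) lie within 0.25 of 0.

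Lpin1 encodes lipin 1, a phosphatidate phosphatase that also acts in the nucleus as a coactivator of PPAR alpha, and its liver transcript is known to rise with fasting and glucocorticoids. It is ENSMUSG00000020593, on chromosome 12 from 16585670 to 16696967 in the coordinates of the table (GRCm39). The wild-type livers held 162 and 334 CPM of its transcript and the knockout livers 98.5 and 112 CPM. Both HFD-KO values were below both HFD-WT values, but the HFD-WT livers differed from each other by more than the lower of them differed from the HFD-KO livers. Knockout against wild type, this gave a log2 fold change of -1.24 (SE 0.29, 95% interval -1.92 to -0.56, edgeR adjusted p = 0.268). The size rested on HFD-WT replicate 2, without which the log2 fold change was -0.62, while without HFD-WT replicate 1 it was -1.67. Each of these fits kept 1 HFD-WT library and so left out the spread between the HFD-WT livers. Over the alternatives with all 4 libraries the adjusted p ranged from 0.010 (edgeR, no filter on low counts) to 0.541 (DESeq2's Wald test). The log2 ratio of the HFD-WT replicates was 1.04, and only 0.185% of the tested genes with a mean of at least 10 CPM in HFD-WT livers had a larger one in either direction. The HFD-KO replicates differed by a log2 ratio of 0.18, which 29% of those genes exceeded.

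Lpin2 encodes lipin 2, which carries the same enzymatic activity and is prominent in liver. It is ENSMUSG00000024052, on chromosome 17 from 71489555 to 71556812. It had 429 and 448 CPM in the wild-type livers against 335 and 367 CPM in the knockout livers. The replicates lay close together in each group and the groups were apart. For Lpin2 the log2 fold change came to -0.32 (SE 0.09, 95% interval -0.53 to -0.11, edgeR adjusted p = 0.367), and it ran from -0.39 to -0.26 in the fits without one library. The smaller change of Lpin2 thus had replicate agreement that the larger change of Lpin1 lacked among the HFD-WT livers.

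Because both lipins were lower, the sequence before a start of each gene is given, so that a reader can compare what the paralogs share there. The windows are the 250 bases before the only Lpin1 start at hand and before the most upstream of 3 Lpin2 starts in RefSeq. They are written 5′ to 3′ on the strand of the gene, with coordinates of GRCm38.p6, which is not the build of the table. Whether that Lpin1 start is the most upstream start of the gene was not examined, so the windows may differ in their place within the genes. Capitals mark matches on either strand to CCAAT, the E-box CACGTG, the GC box GGGCGG, the glucocorticoid receptor half-site AGAACA, the nuclear receptor half-site AGGTCA, the TATA box and the sterol regulatory element TCACNCCAC. Counts per gene do not tell which start was used.
Lpin1, chr12:16610967-16611216, minus strand: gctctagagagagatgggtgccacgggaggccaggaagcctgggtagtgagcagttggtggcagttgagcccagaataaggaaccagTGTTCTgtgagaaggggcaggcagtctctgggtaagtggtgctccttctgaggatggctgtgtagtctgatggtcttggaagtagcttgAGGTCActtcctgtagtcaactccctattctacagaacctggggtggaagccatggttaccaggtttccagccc
Lpin2, chr17:71183282-71183531, plus strand: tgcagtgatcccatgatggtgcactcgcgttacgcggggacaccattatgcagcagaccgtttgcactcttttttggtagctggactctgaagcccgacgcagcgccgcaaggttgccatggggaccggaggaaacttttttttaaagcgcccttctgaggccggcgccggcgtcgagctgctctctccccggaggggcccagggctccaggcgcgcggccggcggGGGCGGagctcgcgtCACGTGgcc
The Lpin1 window held AGGTCA on the strand of the gene, starting 74 bases before the start, and AGAACA on the opposite strand, 163 bases before it. The Lpin2 window held GGGCGG 24 bases and CACGTG 9 bases before its start. These windows shared none of the 7 motifs, but the window of another Lpin2 start, not printed here, held AGAACA on the opposite strand, 203 bases before that start. Among the 32851 windows of the same length in RefSeq, 14% held AGGTCA, 16.1% AGAACA, 32.7% GGGCGG and 6.02% CACGTG. The window of Mogat1, the other lower gene, held 0 of these motifs, which says only that the letters were absent there. Windows were at hand for 6 of the 10 genes, and those of Dgat1, Dgat2, Mogat2 and Tm6sf2 were not analysed here.

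To compare paralogs of one step, levels were divided by exon length and given as CPM per kilobase. In the lipin step, which also includes Lpin3, Lpin2 held most of the level in every library. Lpin1 held 26.3% and 41.2% of the step in HFD-WT livers and 21.6% and 22.4% in HFD-KO livers. Lpin2 held 71.7% and 56.9% in HFD-WT and 75.6% and 75.5% in HFD-KO livers. The share of Lpin1 was thus lower in both HFD-KO livers than in either HFD-WT liver, and HFD-WT replicate 2 stood farthest from them. The summed level of the step was 85.3 and 112 CPM per kilobase in HFD-WT and 63.1 and 69.1 in HFD-KO livers, a log2 difference of the means of -0.58 with no overlap. The exact two-sided permutation test of 2 libraries against 2 can give no p smaller than 0.33, so shares and sums are given as values.

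**Figure D4:**
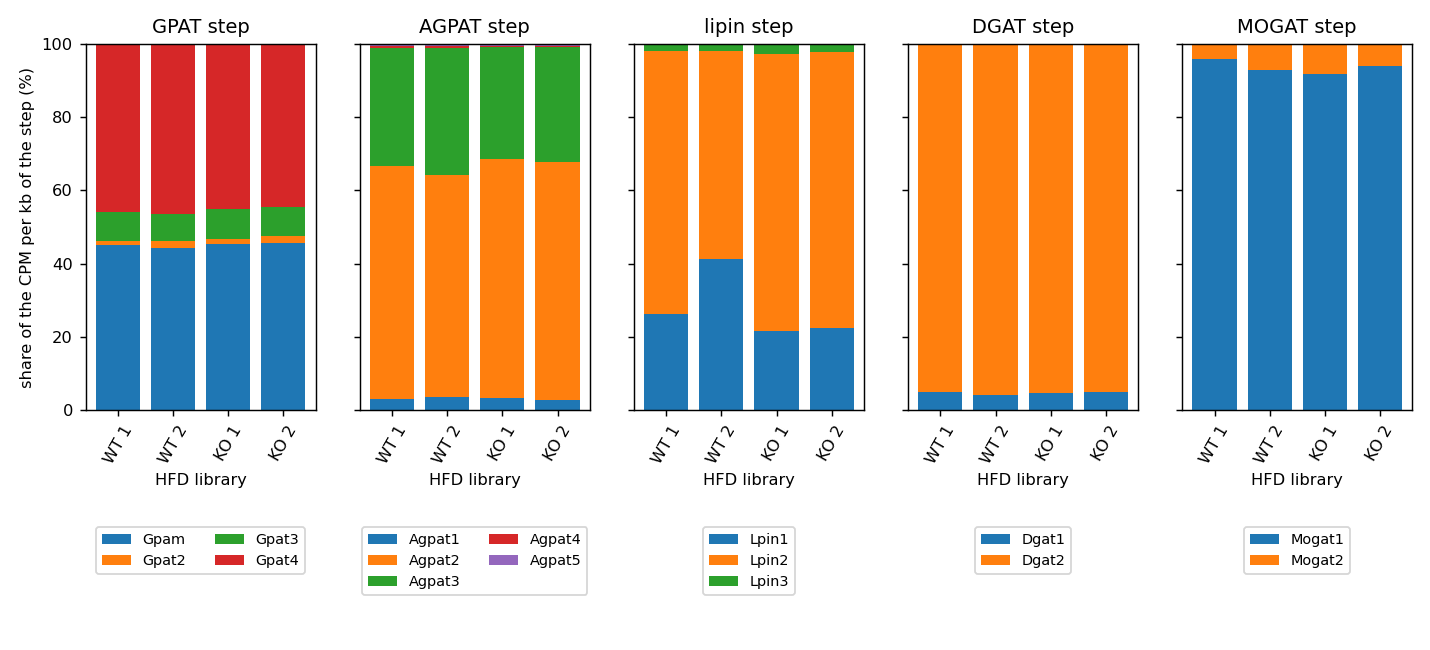
Share of each paralog in the summed CPM per kilobase of its step (percent, bars adding to 100) in each of the 4 libraries. The division of the GPAT, AGPAT and DGAT steps is nearly alike in all libraries, and the share of Lpin1 in the lipin step ranges from 21.6% to 41.2%.

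Among the acyltransferases that precede the lipins, Gpam and Agpat2 showed no difference that stood out from replicate spread. Gpam, on chromosome 19 from 55055700 to 55115670, encodes the glycerol-3-phosphate acyltransferase of the outer mitochondrial membrane and is a known target of SREBP-1c. It had 265 and 255 CPM in the wild-type livers against 216 and 266 CPM in the knockout livers. Replicate 1 of HFD-KO was the lowest library, while replicate 2 matched the HFD-WT livers, so the groups overlapped. The log2 fold change was -0.11 (SE 0.11, 95% interval -0.37 to 0.15, edgeR adjusted p = 0.806). It was 0.03 without HFD-KO replicate 1. Scaled by library size alone, both HFD-KO values lay below both HFD-WT values. Gpam held between 44.3% and 45.7% of the GPAT step, about as much as Gpat4, the form of the endoplasmic reticulum, with 44.6% to 46.4%.

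Agpat2, on chromosome 2 from 26483069 to 26494429, encodes the acyltransferase whose loss in humans and mice causes lipodystrophy with fatty liver. It had 180 and 169 CPM in the wild-type livers against 187 and 184 CPM in the knockout livers. Both HFD-KO values were slightly above the HFD-WT values, which did not hold after scaling by library size alone. On the log2 scale Agpat2 differed by 0.09 (SE 0.08, 95% interval -0.10 to 0.28, edgeR adjusted p = 0.774). Agpat2 held between 60.7% and 65.2% of the AGPAT step, followed by Agpat3 with 30.5% to 34.6%. On the opposite strand it shares 64 bases with Egfl7 and 11361 bases with Gm20532, and whether counting used strand is not stated. Gm20532 had means of 0 CPM in the wild-type and 0.019 CPM in the knockout livers.

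Of the transcripts for the final acylation, nearly all were those of Dgat2 in these livers. Dgat2 and Dgat1 encode unrelated proteins that catalyse the same reaction, Dgat2 mainly on newly made and Dgat1 mainly on preformed fatty acids. Dgat2, on chromosome 7 (98802865 to 98831926), had 564 and 615 CPM in the wild-type livers against 582 and 573 CPM in the knockout livers. The HFD-KO values lay between the HFD-WT values. Its log2 fold change was -0.03 (SE 0.09, 95% interval -0.24 to 0.19, edgeR adjusted p = 0.951). Dgat1, on chromosome 15 (76386215 to 76396153), had 21.5 and 19.0 CPM in the wild-type livers against 21.0 and 22.2 CPM in the knockout livers, again with overlap. Its log2 fold change was 0.09 (SE 0.10, 95% interval -0.13 to 0.32, edgeR adjusted p = 0.815). Per kilobase, Dgat2 exceeded Dgat1 19.4-fold and 23.9-fold in HFD-WT and 20.5-fold and 19.1-fold in HFD-KO livers. The intervals leave room for a decrease of Dgat2 by as much as its lower bound and an increase of Dgat1 by as much as its upper bound.

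Mogat1 was the third gene that was lower. It encodes a monoacylglycerol acyltransferase that is scarce in lean liver and is known to increase in fatty liver. It is ENSMUSG00000012187, on chromosome 1 from 78487628 to 78514810, and had 11.8 and 12.3 CPM in the wild-type livers against 8.58 and 6.78 CPM in the knockout livers. These levels rest on 341, 338, 226 and 162 reads. The HFD-WT livers were nearly equal and both HFD-KO livers lay below them. On the log2 scale Mogat1 differed by -0.64 (SE 0.14, 95% interval -0.98 to -0.31, edgeR adjusted p = 0.248), and its unadjusted p was the smallest of the 10 genes. It ran from -0.83 to -0.49 in the fits without one library, with an adjusted p between 0.0015 and 0.9998 over the alternatives. Mogat1 shares 1168 bases of its span with BC035947 on the opposite strand, with means of 0.564 CPM in the wild-type and 0.576 CPM in the knockout livers.

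Mogat2, the intestinal paralog beside Dgat2 on chromosome 7, was close to the limit of detection. It had 18 and 33 reads in HFD-WT and 26 and 13 reads in HFD-KO livers, or 0.621 and 1.20 CPM and 0.987 and 0.544 CPM. The groups overlapped, and the highest and the lowest HFD-WT library bracketed 1 of the HFD-KO libraries. The log2 fold change of -0.23 had a standard error of 0.48 and a 95% interval from -1.36 to 0.90 (edgeR adjusted p = 0.920), so a change was not detectable at this depth. Mogat1 held between 91.7% and 96.0% of the MOGAT step, and the summed step was 8.13 and 8.77 CPM per kilobase in HFD-WT and 6.21 and 4.78 in HFD-KO livers.

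Neither gene of VLDL assembly among the 10 passed the adjusted or the unadjusted threshold. Mttp, on chromosome 3 (137795615 to 137850729), had 275 and 285 CPM in the wild-type livers against 281 and 277 CPM in the knockout livers. These were the most even values among the 10 genes, the HFD-KO livers lying between the HFD-WT livers. Its log2 fold change was -0.0064 (SE 0.08, 95% interval -0.19 to 0.18, edgeR adjusted p = 0.987). Mttp shares 1521 bases with Trmt10a on the opposite strand, a gene of 3.91 CPM in HFD-WT livers. Apob, which encodes the apolipoprotein that Mttp loads, had 4044 and 3988 CPM in the wild-type livers against 3900 and 4245 CPM in the knockout livers. Its groups overlapped too, with a log2 fold change of 0.02 (SE 0.12, 95% interval -0.25 to 0.29, edgeR adjusted p = 0.976) that turned to -0.03 after scaling by library size alone.

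Tm6sf2, on chromosome 8 from 70525574 to 70532716, encodes a membrane protein whose coding variant in humans raises liver fat and lowers blood lipids. It had 19.5 and 17.6 CPM in the wild-type livers against 19.9 and 26.2 CPM in the knockout livers. Replicate 2 of HFD-KO was the highest library, while replicate 1 lay just above the HFD-WT livers. The log2 fold change was 0.31 (SE 0.14, 95% interval -0.01 to 0.63, edgeR adjusted p = 0.567), with an adjusted p between 0.010 and 0.9999 over the alternatives. It was 0.10 without HFD-KO replicate 2 and 0.50 without HFD-KO replicate 1.

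Ordered by CPM per kilobase in HFD-WT livers, the genes ran from Dgat2 (213) and Agpat2 (91.0) through Lpin2 (62.5), Mttp (58.7), Gpam (36.1) and Lpin1 (34.3) to Tm6sf2 (11.9), Dgat1 (9.90), Mogat1 (7.98) and Mogat2 (0.473). Over the 4 libraries Lpin2 overlapped with Mttp, Gpam with Lpin1 and Lpin1 with Tm6sf2, and the other neighbours did not overlap. In HFD-KO livers Mttp (58.4) stood above Lpin2 (49.96), and the values of Tm6sf2 (14.7) and Lpin1 (14.5) overlapped between the HFD-KO libraries. The order is one of RNA levels, and it does not rank enzyme activity.

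The other genes of the pathway were examined as lists, to be read against the 8.98% of all genes tested that had an unadjusted p under 0.05. Of 19 other triglyceride synthesis genes, all tested, 5 were higher and 14 lower, with 1 gene in each direction at an unadjusted p under 0.05 by edgeR and 0 at an adjusted p under 0.05. Their median log2 fold change was -0.074. Acsl3, an acyl-CoA synthetase of lipid droplets, had 10.7 and 10.3 CPM in the wild-type livers against 16.2 and 14.1 CPM in the knockout livers, so both HFD-KO livers were higher. Its log2 fold change was 0.53 (SE 0.11, 95% interval 0.27 to 0.79, edgeR adjusted p = 0.233, from 0.0086 to 0.9998 over the alternatives). Agpat4, a minor AGPAT form here, had 52 and 51 reads in HFD-WT and 32 and 15 reads in HFD-KO livers. Agpat4 differed by -0.97 on the log2 scale (SE 0.37, edgeR adjusted p = 0.507), by -0.58 without HFD-KO replicate 2 and by -1.53 without HFD-KO replicate 1. Acsl1, the most abundant synthetase of the list, had 1473 and 1343 CPM in the wild-type livers against 1687 and 1499 CPM in the knockout livers (log2 fold change 0.18, edgeR adjusted p = 0.689).

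Export and the phospholipid branch were examined in the same way. Of 18 other VLDL assembly and secretion genes, which include Apob, the protein disulfide isomerase P4hb that pairs with the Mttp product, and the vesicle genes Sar1b, Surf4, Mia2 and Mia3, 8 were higher and 10 lower, and 0 had an unadjusted or adjusted p under 0.05 by edgeR. Their log2 fold changes ran from -0.28 to 0.15 with a median of -0.024. Of 16 phospholipid genes that draw on diacylglycerol or phosphatidate, such as Pcyt1a, Chpt1 and Pemt, 15 were tested and Pcyt1b was not, and of these 8 were higher and 7 lower. Again 0 had an unadjusted or adjusted p under 0.05 by edgeR, and the median was 0.013. These lists were drawn up with earlier results of the same libraries known, so their counts describe these libraries only.

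**Figure D5:**
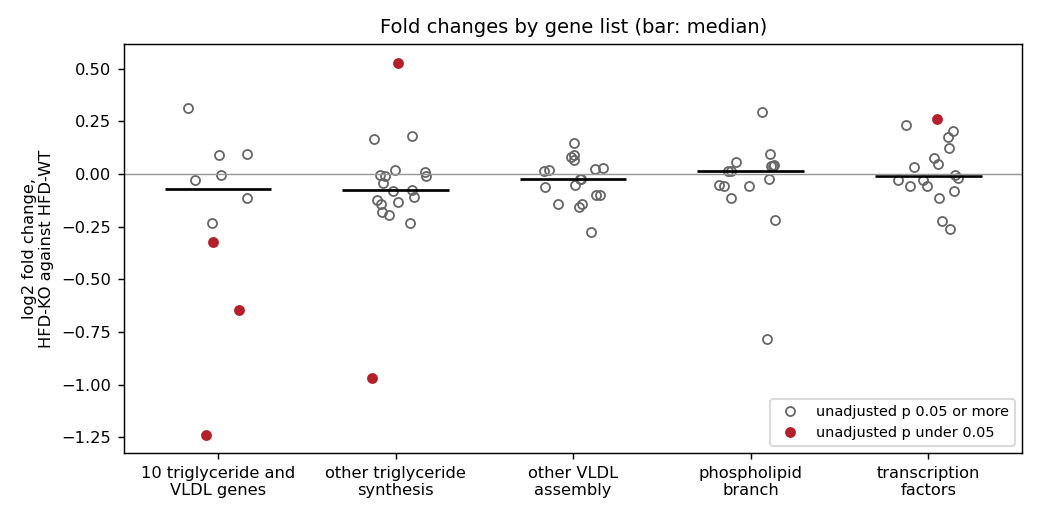
Log2 fold change between the genotypes (HFD-KO over HFD-WT) for every tested gene of the 10 and of 4 further lists, with filled points for an unadjusted p under 0.05 by edgeR and a bar at the median. The medians lie between -0.074 and 0.013, and 3 of the 6 filled points belong to the 10 genes.

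Of 18 transcription factors and coactivators known to act on these genes, 8 were higher and 10 lower, and 0 had an adjusted p under 0.05 by edgeR. Mlxipl, which encodes the carbohydrate-sensing factor ChREBP, was the single gene with an unadjusted p under 0.05. It had 225 and 211 CPM in the wild-type livers against 279 and 243 CPM in the knockout livers, so both HFD-KO livers were higher. The log2 fold change was 0.26 (SE 0.10, 95% interval 0.03 to 0.49, edgeR adjusted p = 0.493, from 0.030 to 0.9998 over the alternatives), and 0.16 without HFD-KO replicate 1. Srebf1, which encodes SREBP-1c, had 130 and 127 CPM in the wild-type livers against 122 and 116 CPM in the knockout livers. Both HFD-KO livers were lower, by a log2 fold change of -0.11 (SE 0.08, 95% interval -0.30 to 0.07, edgeR adjusted p = 0.713). The 2 lipogenic factors thus lay on opposite sides of 0, and neither passed the adjusted threshold.

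Markers of other cell types and clock genes were read in the same libraries. At an unadjusted p under 0.05 by edgeR, 4.73% of all genes tested were lower and 4.25% higher, against which the counts below are read. Macrophage and Kupffer cell markers were lower in 11 of 12 genes, 9 of them at an unadjusted p under 0.05 by edgeR. Their summed level was 491 to 615 CPM in HFD-WT and 381 to 400 CPM in HFD-KO livers. HFD-WT replicate 2, the library with the highest Lpin1, also had the highest macrophage, stellate cell, endothelial and cholangiocyte sums. It had the lowest red blood cell and B and plasma cell sums. Within HFD-KO, replicate 1 had the higher macrophage sum (400 against 381 CPM) but the lower Lpin1 (98.5 against 112 CPM). Stellate cell markers were lower in 6 of 8 genes, 3 of them at an unadjusted p under 0.05 by edgeR. Their sums were 334 to 377 CPM in HFD-WT and 255 to 303 CPM in HFD-KO livers. Red blood cell markers were higher in 5 of 5 genes, 3 of them at an unadjusted p under 0.05 by edgeR. Their sums were 600.2 to 757 CPM in HFD-WT and 810.4 to 1146 CPM in HFD-KO livers. B and plasma cell markers were higher in 8 of 8 genes, 3 of them at an unadjusted p under 0.05 by edgeR. Their sums were 15.7 to 19.4 CPM in HFD-WT, and 126 CPM in replicate 1 and 18.2 CPM in replicate 2 of HFD-KO. In whole liver, fewer cells of a type and less RNA per cell cannot be told apart. Of 19 clock genes, 12 were higher and 7 lower, 4 and 2 of them at an unadjusted p under 0.05 by edgeR. Their sums were 893 to 898 CPM in HFD-WT and 970 to 978 CPM in HFD-KO livers, which does not measure the time of day. The collection time and the fasting state of these livers are not stated in the sources used here. In none of these lists, nor in those of endothelial cells and cholangiocytes, did a gene have 0 reads in all libraries. The part of these markers in the levels of Lpin1, Lpin2 and Mogat1 was not tested. Endothelial sums overlapped between the groups, at 221 to 244 CPM and 215.5 to 236.0 CPM. Cholangiocyte sums were 71.6 to 90.6 CPM in HFD-WT and 50.1 to 59.6 CPM in HFD-KO livers. The endothelial and cholangiocyte lists each had 1 lower gene at an unadjusted p under 0.05 by edgeR. Among 7 adipocyte markers Lep had 0 reads, and Cidea, which fatty hepatocytes also express, made up most of a sum of 36.1 to 62.3 CPM.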

How the data were processed

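RNA was extracted with TRIzol, libraries were made with a directional MGI kit, and the authors mapped paired reads to mm10 and quantified GENCODE genes in Partek Genomics Suite. Versions, use of strand and treatment of reads with several alignments are not given in the sources used here. The deposited table places genes on GRCm39. The authors deposited counts, RPKM, TPM and an adjusted CPM for each library. The deposited counts are unnormalized whole numbers, and these were tested. The authors' RPKM served only to derive exon lengths. The authors' TPM, and their CPM, a score on an adjusted library size, were not used. CPM as printed here is the count over TMM-adjusted library sizes.

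HFD-KO was compared with HFD-WT in R 4.3.3 with edgeR 4.0.16 (filterByExpr, TMM, quasi-likelihood test, two-sided, Benjamini-Hochberg adjustment over 12967 genes, without a replicate block). The 95% intervals used the standard error and the t distribution. Replicates differed by more than counting noise, the chi-square statistic over its degrees of freedom being 10.3 for HFD-WT and 41.0 for HFD-KO. At this depth 3 counts correspond to 0.104 to 0.126 CPM, for counting error only. Alternatives were DESeq2 1.42.0 (size factors or Wald test), plain library size, other filters, a replicate block and leaving out each library. The procedure was tested on simulated data, where 184 of 200 genes changed 2-fold were recovered with 26 false calls among 12846 genes. The false calls were a larger share of all calls than the adjusted threshold is meant to allow. In the real libraries Adarb1 and Lpin1, at 0.443 and 0.424 times the HFD-WT level, were not called by the same procedure (edgeR adjusted p = 0.159 and 0.268). The simulated recovery therefore does not give the chance of calling a 2-fold change in these livers.

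The 10 genes and all lists were chosen with earlier results of these data known. Named were all 10 genes, Adarb1, Apob, Srebf1, Mlxipl and, per list, up to 4 genes with the smallest unadjusted p under 0.05. Acsl1 and the genes named as examples of a list were added after their values were seen. Promoter sequences came from RefSeq (GRCm38.p6).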

Additional observations from a re-analysis of the deposited data

How the results depend on the processing

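Over 99 recomputed values of the 10 genes, 93 kept their direction and 6, of 4 genes, did not. Mogat2 gave no value with the filter of 1 CPM. At an adjusted p under 0.05, 2 genes were lower with no filter on low counts, and with each library left out 0 to 2 were lower and 0 to 1 higher. At an unadjusted p under 0.05, 1 gene was higher with no filter, and 0 to 1 were higher and 2 to 4 lower with each library left out. With library size alone, groups did not overlap for 1 higher gene and 4 lower genes, beside 13.8% and 27.7% of all genes tested, and Apob had a log2 fold change of -0.027. The other directions that turned, with a library left out, belonged to genes near 0 and to Mogat2, a gene of few reads (log2 fold change -0.23, SE 0.48). The log2 fold change of Gpam ranged from -0.27 to 0.031, of Dgat2 from -0.096 to 0.036 and of Mogat2 from -0.73 to 0.31. That of Mttp ranged from -0.039 to 0.023 and of Apob from -0.043 to 0.081. The cause was not tested. With the replicate number as a block, 0 of the 10 genes had an adjusted p under 0.05 and Lpin1 had a log2 fold change of -1.15 by edgeR. Numbers were not taken as pairs, since neither the labels nor the study describes a pairing. Across genes the deviations of same-numbered libraries correlated at -0.087. The block called 12 higher and 8 lower genes of all tested, against 7 and 3 without it. Adarb1 was among those called with the block (edgeR adjusted p = 0.040). Overall calls were 81 and 81 with no filter and 56 and 61 with DESeq2's Wald test. With 2 libraries per group, precision is limited to the intervals given.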
